A study of Mus musculus with 32 samples.

Results

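Molecular chaperones of the heat shock response and the unfolded protein response were followed through the brains of ACSS2 knockout (KO) and wild-type (WT) mice whose mothers had received ethanol or saline. The genes were taken by symbol from the annotated gene count table, which lists 56415 genes, and all 41 were found there: 23 act in or for the endoplasmic reticulum and 18 in the cytosol, nucleus or mitochondria. PolyA RNA-seq libraries were made from the cerebellar vermis and the dorsal hippocampus of 16 C57BL/6J mice, 1 library per region and mouse, which gave 32 libraries in 8 groups of 4 (2 females, F1 and F3, and 2 males, M1 and M3). In each region the groups were ethanol-exposed KO mice (KO cPAE), saline-exposed KO mice (KO cPSE), ethanol-exposed WT mice (WT cPAE) and saline-exposed WT mice (WT cPSE). Dams were injected intraperitoneally each day with 3 g of ethanol per kg (20% by volume) or an equal volume of saline, from after the first of 5 nights with a stud until birth, so all controls were offspring of injected dams. Weaning was on postnatal day 21, and brains were taken after cervical dislocation on postnatal days 40 to 50, long after the last injection. The mice are separate animals, but their litters and the construction of the KO allele are not given in the sources used here.

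Cells match folding capacity to need by separate routes. In the endoplasmic reticulum, misfolded proteins draw the chaperone BiP (Hspa5) away from the sensors ATF6, IRE1 and PERK. Cleaved ATF6, spliced XBP1 and translated ATF4 then enter the nucleus and raise chaperones, disulfide isomerases and the machinery that returns failed proteins to the cytosol for degradation. In the cytosol, HSF1 is held back by Hsp70 and Hsp90 and, once released, activates heat shock genes, while the chaperonin of Hsp60 (Hspd1) and Hsp10 (Hspe1) folds proteins inside mitochondria.

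The promoters of 6 members are shown because they carry the DNA elements by which these routes are told apart and belong to the genes on which the results turn. They are RefSeq sequences of GRCm38.p6, 250 bases before to 50 bases after the annotated start, read 5′ to 3′ on the strand of the gene. In Pdia6 (chr12:17266339-17266638, plus strand), Calr (chr8:84846882-84847181, minus strand), Hspa5 (chr2:34771840-34772139, plus strand) and Hsp90b1 (chr10:86705395-86705694, minus strand), capitals mark the endoplasmic reticulum stress element, CCAAT, then 9 bases of any kind, then CCACG, on either strand. In Hspe1 (chr1:55087898-55088197, plus strand) and Hsph1 (chr5:149636287-149636586, minus strand), capitals mark a pair of facing heat shock units, GAANNTTC or TTCNNGAA.
Pdia6: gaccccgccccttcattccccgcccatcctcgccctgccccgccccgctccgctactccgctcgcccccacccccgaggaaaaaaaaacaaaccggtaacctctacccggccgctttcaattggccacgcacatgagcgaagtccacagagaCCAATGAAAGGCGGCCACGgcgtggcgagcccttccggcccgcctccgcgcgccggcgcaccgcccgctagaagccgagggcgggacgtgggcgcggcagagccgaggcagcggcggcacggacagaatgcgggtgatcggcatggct
Calr: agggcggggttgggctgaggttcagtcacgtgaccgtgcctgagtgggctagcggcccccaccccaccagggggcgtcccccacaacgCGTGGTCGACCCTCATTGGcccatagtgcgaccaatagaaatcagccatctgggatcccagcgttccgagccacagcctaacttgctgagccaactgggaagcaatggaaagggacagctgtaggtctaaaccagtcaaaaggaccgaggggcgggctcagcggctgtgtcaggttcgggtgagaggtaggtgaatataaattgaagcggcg
Hspa5: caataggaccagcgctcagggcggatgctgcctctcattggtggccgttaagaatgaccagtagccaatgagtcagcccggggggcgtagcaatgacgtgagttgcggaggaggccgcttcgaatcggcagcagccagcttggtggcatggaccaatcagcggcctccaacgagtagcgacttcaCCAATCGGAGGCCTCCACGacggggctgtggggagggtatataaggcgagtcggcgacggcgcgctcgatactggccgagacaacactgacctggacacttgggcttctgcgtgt
Hsp90b1: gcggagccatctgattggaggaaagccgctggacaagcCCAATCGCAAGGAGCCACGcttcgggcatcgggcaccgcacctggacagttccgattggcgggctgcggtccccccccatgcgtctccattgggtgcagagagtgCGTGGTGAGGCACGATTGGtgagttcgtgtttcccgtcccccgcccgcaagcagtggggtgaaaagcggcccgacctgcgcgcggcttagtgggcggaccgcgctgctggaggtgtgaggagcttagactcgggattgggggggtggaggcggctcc
Hspe1: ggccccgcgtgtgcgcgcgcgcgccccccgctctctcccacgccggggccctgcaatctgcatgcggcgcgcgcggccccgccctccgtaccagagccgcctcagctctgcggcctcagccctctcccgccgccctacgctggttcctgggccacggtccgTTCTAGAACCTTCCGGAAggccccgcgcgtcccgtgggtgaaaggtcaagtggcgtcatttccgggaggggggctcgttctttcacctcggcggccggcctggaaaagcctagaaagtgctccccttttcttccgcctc
Hsph1: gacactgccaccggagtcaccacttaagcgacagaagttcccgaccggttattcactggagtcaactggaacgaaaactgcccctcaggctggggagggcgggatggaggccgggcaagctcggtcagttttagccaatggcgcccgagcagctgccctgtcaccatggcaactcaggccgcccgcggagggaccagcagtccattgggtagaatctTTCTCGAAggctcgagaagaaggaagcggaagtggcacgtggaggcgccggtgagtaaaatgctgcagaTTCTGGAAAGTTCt
The table held promoters for 34 of the 41 members and not for Atf6, Manf, Hyou1, Hspa8, Hsp90aa1, Hsp90ab1 or Hsf1. The stress element was found in 8 of 20 promoters of the endoplasmic reticulum members (40%), those of Calr, Canx, Creld2, Dnajc3, Hsp90b1, Hspa5, Pdia6 and Syvn1, and Hsp90b1 held 2 copies. It was found in 0 of 19 promoters of the cytosolic and mitochondrial members and in 0.119% of the 32851 promoters of the table. The heat shock pair was found in 10 of those 19 promoters (52.6%), which belong to 9 of 14 genes (Bag3, Chordc1, Dnaja1, Hspa1a, Hspa1b, Hspb1, Hspd1, Hspe1 and Hsph1), in 0 of the 20 endoplasmic reticulum promoters and in 15.1% of all promoters. Hspd1 and Hspe1 start on opposite strands. The Hspd1 window with matches (chr1:55087883-55088182) overlaps that of Hspe1 almost wholly, so their matches are the same bases. Another Hspd1 window (chr1:55088194-55088493) held 0 matches. The motif TGATGNAAT, bound by CHOP and ATF partners, and TGACGTGG, bound by XBP1 and ATF6, were in 0 member promoters and in 0.965% and 0.676% of all promoters. A match describes letters in this window and is not evidence of binding.

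Total counts ran from 23085928 to 73803508 in the vermis and from 54092519 to 96664509 in the hippocampus, and all 41 members passed the low-count filter in both regions. Acss2 gave 10.6 to 19.8 CPM (counts scaled to a common library total) in the 8 KO vermis libraries against 55.1 to 66.7 in the 8 WT ones, a log2 difference of -1.91. In the hippocampus it gave 10.8 to 13.8 CPM in KO against 51.0 to 64.4 CPM in WT, a log2 difference of -2.21. The groups did not overlap in either region, and the two-sided exact permutation test gave p = 0.0001554 in each, the smallest this design allows. The ethanol-exposed KO vermis library F1 stood apart, with more oligodendrocyte and blood marker RNA and less Purkinje and granule neuron marker RNA than the other vermis libraries, and F3 of the same group was the shallowest of the 32.

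Per kilobase of exon, cytosolic chaperones were the most abundant members. Hsp90ab1, the constitutive cytosolic Hsp90, had the highest mean level in both regions, 353 CPM per kb in the vermis and 524 in the hippocampus, and the constitutive Hsp70 Hspa8 followed with 346 and 339. Among the endoplasmic reticulum members the calcium-binding lectin chaperone Calr was highest, at 93.4 CPM per kb in the vermis and 101 in the hippocampus. Median levels of the 23 endoplasmic reticulum members were 16.9 CPM per kb in the vermis and 15.4 in the hippocampus, against 22.0 and 20.2 for the 18 other members. The lowest were Edem1, a lectin of endoplasmic reticulum-associated degradation, at 2.33 CPM per kb in the vermis, and Bag3, a cochaperone of Hsp70, at 2.95 in the hippocampus. The rarest member by counts, the small heat shock protein Hspb1, averaged 281.9 counts per library. Hspa1a and Hspa1b are nearly identical copies, so counts of each may include reads of the other.

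The first question was whether prenatal ethanol left a mark on the chaperones of KO hippocampus. Of the 23 endoplasmic reticulum members 22 had a positive fold change in ethanol-exposed KO mice and 1 passed the test, with a median log2 fold change of 0.29, against 18 of 18 and a median of 0.15 for the cytosolic and mitochondrial members. Over all genes tested 52.3% were positive and the median was 0.009. Only Pdia6, a disulfide isomerase that assists BiP, passed the threshold of an adjusted p of 0.05 (edgeR's quasi-likelihood test, Benjamini-Hochberg over 23394 genes). So 1 of 41 members was called, in a comparison that called 0.0513% of genes in either direction and 0.0214% as higher. This count rested on single libraries and on the tool: without F3 of KO cPAE 4 members passed, without any 1 of 13 of the 16 hippocampal libraries 0 passed, and DESeq2 called 10, all of the endoplasmic reticulum. DESeq2 called 113 genes in all, 0.483% of those fitted, of which 40 were higher.

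Pdia6 had 98.0, 91.3, 111 and 136 CPM in KO cPAE hippocampus (F1, F3, M1 and M3, the order used throughout), against 74.2, 76.7, 67.6 and 79.5 CPM in KO cPSE hippocampus. All 4 exposed libraries lay above all 4 saline ones, M3 farthest. Its log2 fold change was 0.55 ± 0.09 (SE, n = 4 each), with an edgeR adjusted p of 0.0475. Calr had 353, 326, 365 and 427 CPM in KO cPAE, against 292, 291, 262 and 268 CPM in KO cPSE. The groups did not overlap here either, and the log2 fold change of 0.40 ± 0.07 missed the threshold with an edgeR adjusted p of 0.0576. Pdia3, which works with Calr and calnexin on glycoproteins, had 197, 177, 202 and 235 CPM in KO cPAE, against 168, 164, 157 and 160.5 CPM in KO cPSE (log2 0.32 ± 0.07, edgeR adjusted p = 0.159). Xbp1, the factor made active by IRE1 splicing, had 53.9, 48.5, 63.1 and 72.4 CPM in KO cPAE, against 40.6, 48.6, 39.4 and 49.0 CPM in KO cPSE. Its lowest exposed library, F3, lay just under the 2 highest saline ones, and its log2 fold change of 0.42 ± 0.10 had an edgeR adjusted p of 0.188.

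The largest fold changes among the members belonged to BiP and Pdia4, whose exposed libraries were spread widely, and neither passed. Hspa5 had 314, 216, 342 and 419 CPM in KO cPAE, against 225, 207, 197 and 228 CPM in KO cPSE (log2 0.59 ± 0.14, edgeR adjusted p = 0.215). F3 lay inside the saline range and the other 3 above it. The isomerase Pdia4 had the same shape, with 55.5, 38.5, 54.4 and 75.1 CPM in KO cPAE and 34.0, 35.8, 36.9 and 42.8 CPM in KO cPSE (log2 0.58 ± 0.14, edgeR adjusted p = 0.203). Hsp90b1, the Hsp90 of the endoplasmic reticulum, had 383, 352, 417 and 485 CPM in KO cPAE, against 345, 296, 303 and 290.2 CPM in KO cPSE, with no overlap (log2 0.42 ± 0.10, edgeR adjusted p = 0.193). The secreted survival factor Manf had 33.0, 28.4, 37.9 and 45.3 CPM in KO cPAE and 26.1, 24.6, 23.4 and 29.9 CPM in KO cPSE (log2 0.47 ± 0.11, edgeR adjusted p = 0.188). Across these members M3 was the highest exposed library and F3 the lowest.

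**Figure D1:**
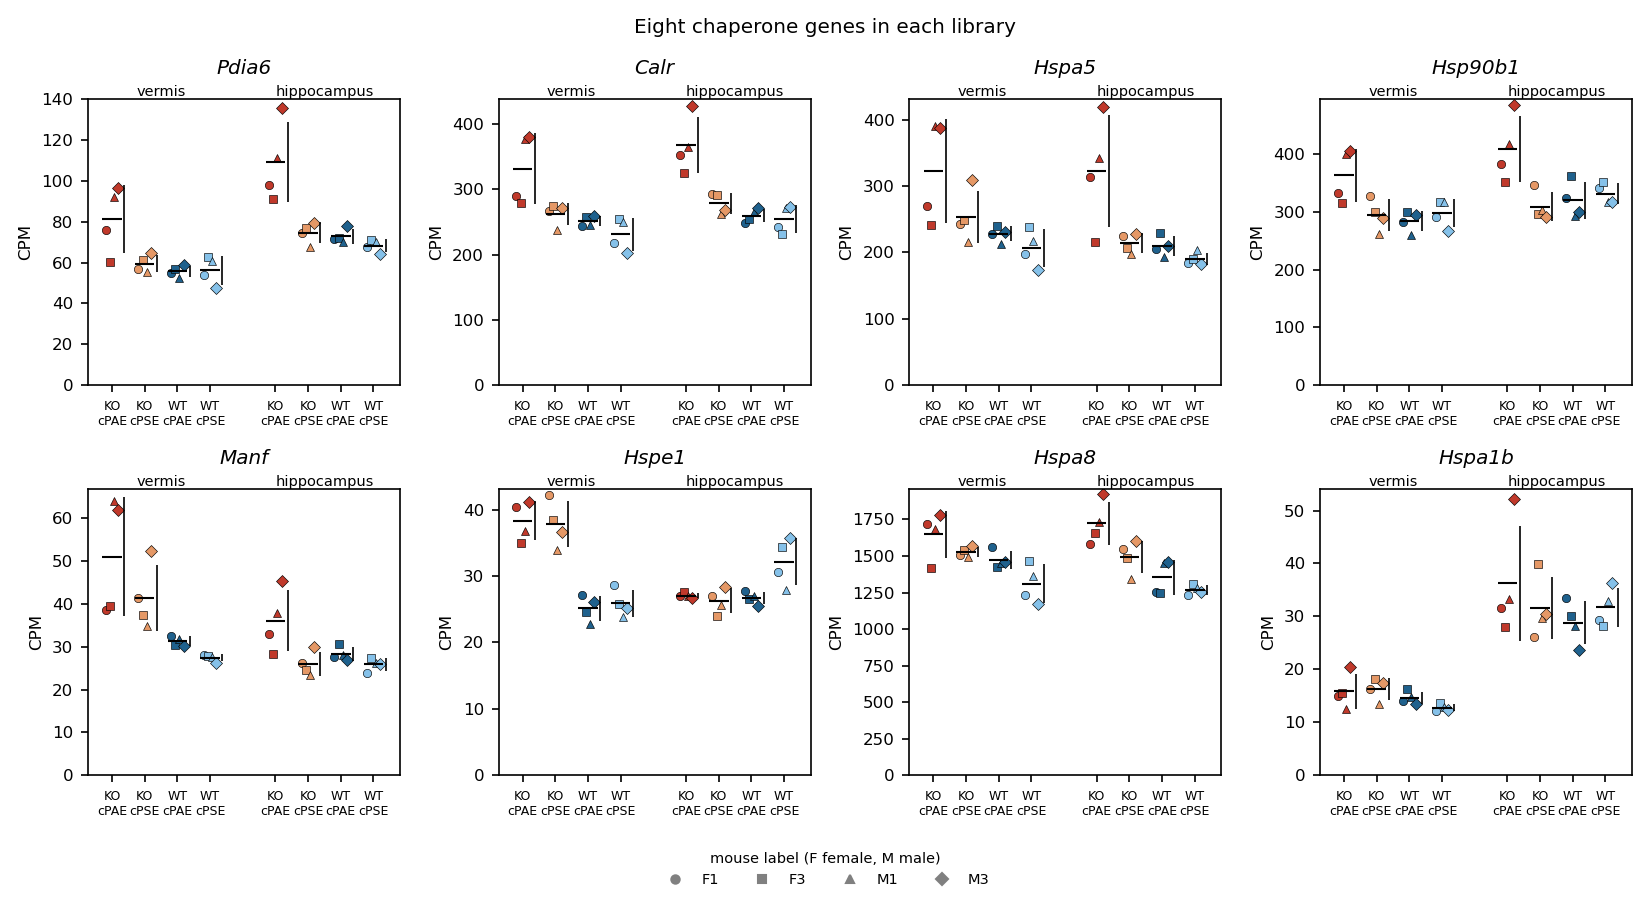
CPM of 8 members in each library, vermis left and hippocampus right. Each marker is 1 mouse (circle F1, square F3, triangle M1, diamond M3), the horizontal line is the group mean and the vertical line ± 1 SD. In KO cPAE the males lie highest for Pdia6, Calr, Hspa5, Hsp90b1 and Manf, and Hspe1 separates KO from WT in the vermis.

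By role, the 9 chaperones of the Hsp70, Hsp90 and J-protein type in the endoplasmic reticulum (Hspa5, Hsp90b1, the Hsp110-like Hyou1, the J-proteins Dnajb9, Dnajb11 and Dnajc3, the Dnajb11 partner Sdf2l1, Manf and Creld2) had a median log2 fold change of 0.42. The 6 lectin chaperones and disulfide isomerases (Calr, Canx, Pdia3, Pdia4, Pdia6 and P4hb) had a median of 0.36. The transcription factors Xbp1, Atf4, Atf6 and Ddit3 (which encodes CHOP) had a median of 0.18, and Atf6 was the only member below 0, at -0.04. The degradation genes Herpud1, Sel1l, Syvn1 and Edem1, which recognise and export failed proteins, had a median of 0.12. At an unadjusted p under 0.05 there were 16 of the 23 endoplasmic reticulum members and 4 of the 18 others, all with positive fold changes. Over all genes 962 were higher (4.11%) and 1215 lower at that level. All 4 exposed libraries exceeded all 4 saline ones in 5 endoplasmic reticulum members (Pdia6, Calr, Pdia3, Hsp90b1 and Dnajb11) and in 0 others, against 2.15% of all genes.

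Fold changes of the cytosolic members were smaller. Hspa8 had 1579.9, 1659.5, 1732 and 1924 CPM in KO cPAE, against 1545, 1489, 1341 and 1599 CPM in KO cPSE, with an overlap at F1 (log2 0.21 ± 0.07, edgeR adjusted p = 0.438). Medians were 0.16 for the Hsp70 and Hsp110 chaperones (Hspa8, the inducible Hspa1a and Hspa1b, and the exchange factors Hsph1, Hspa4 and Hspa4l). They were 0.17 for Hsp90aa1, Hsp90ab1 and the cochaperones Chordc1, Ahsa1 and Stip1, and 0.18 for the J-proteins Dnajb1 and Dnaja1 with Bag3 and Hspb1. Hsf1, the heat shock transcription factor, was at 0.04, and the mitochondrial pair Hspd1 and Hspe1 had a median of 0.06. Other genes of these pathways, 49 of endoplasmic reticulum stress and folding and 45 cytosolic and mitochondrial chaperones, had medians of 0.04 and 0.05 with 0 called in either list.

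**Figure D2:**
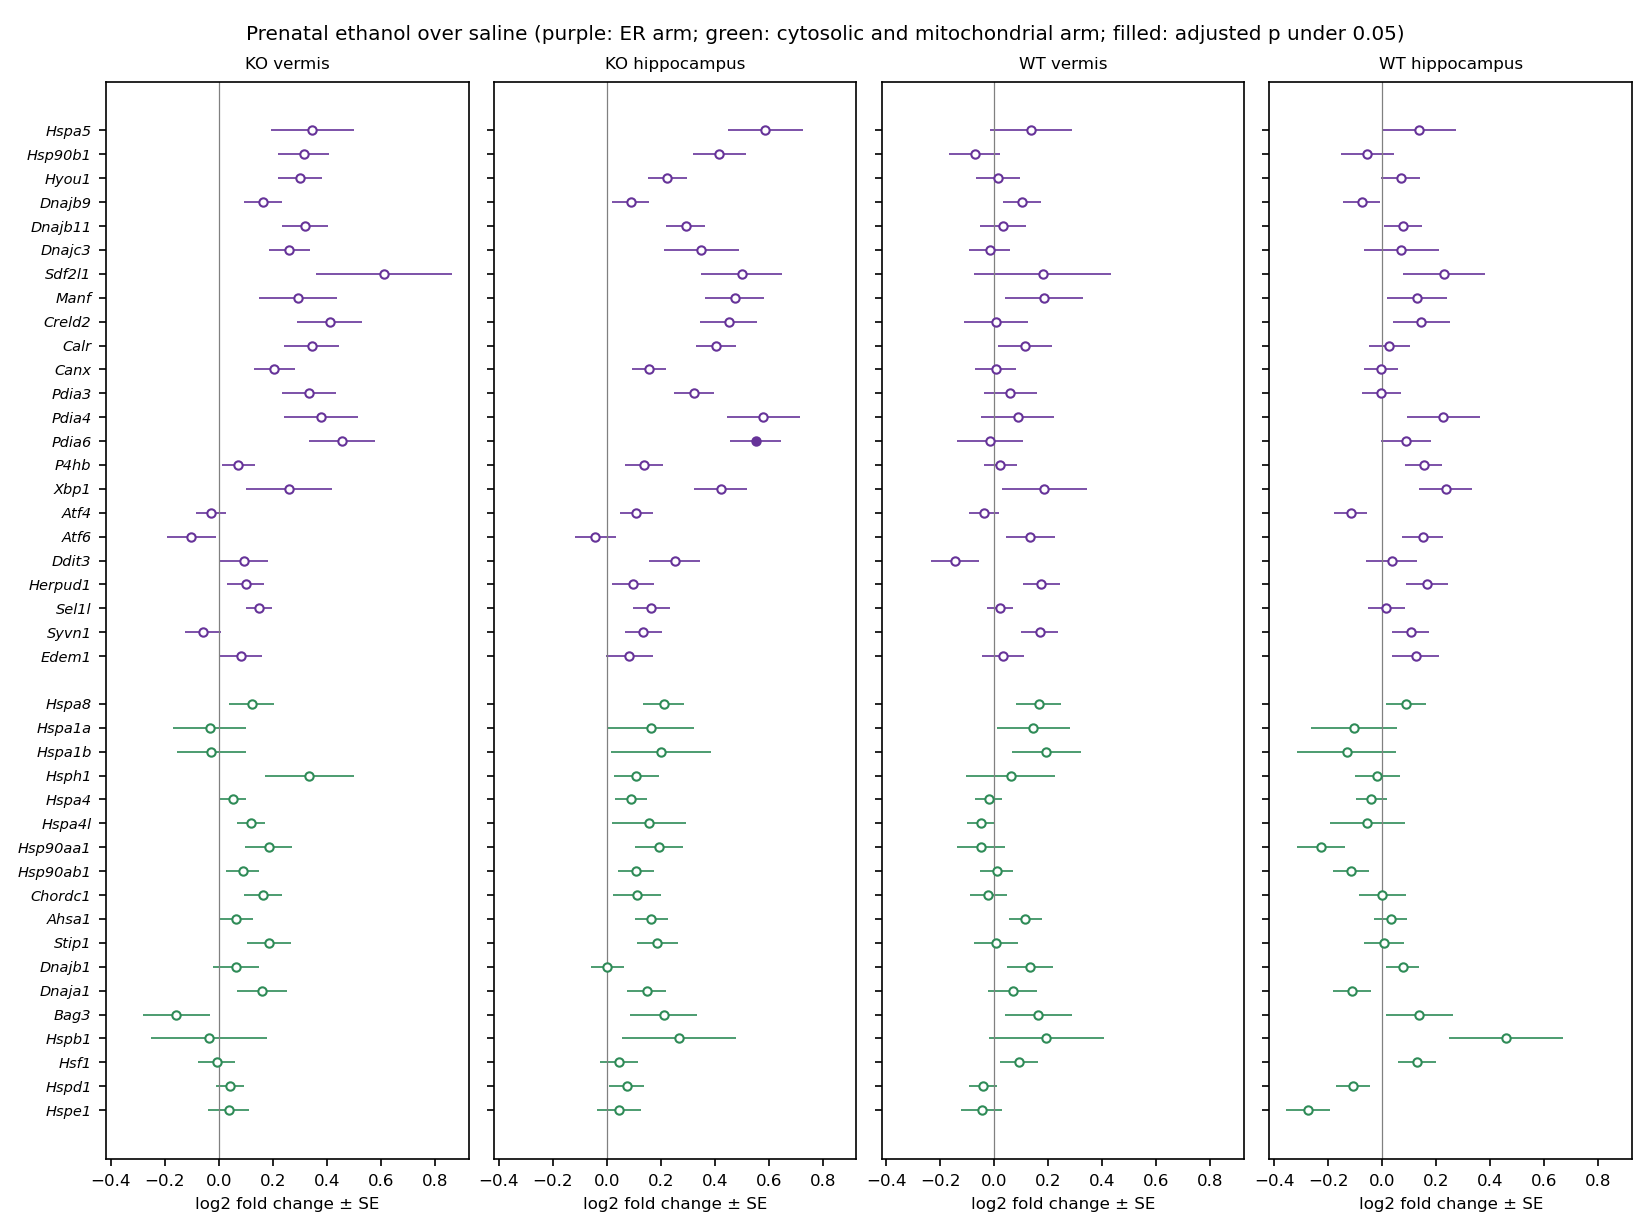
Log2 fold change of ethanol over saline, ± SE, for the 41 members in KO and WT mice, per region. Endoplasmic reticulum members are purple and the others green, with filled symbols for an edgeR adjusted p under 0.05. In KO hippocampus 40 of the 41 lie right of 0 and Pdia6 alone is filled.

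In WT hippocampus 0 members passed. No gene of the whole table passed there (0% called by edgeR), although 1140 genes were higher and 1317 lower at an unadjusted p under 0.05. The endoplasmic reticulum members had a median of 0.09, with 18 of 23 positive, and the others a median of -0.03, with 8 of 18 positive, where 52.2% of all genes were positive. The smallest p among members belonged to Hspe1, with 27.7, 26.6, 26.9 and 25.4 CPM in WT cPAE, against 30.7, 34.4, 27.9 and 35.8 CPM in WT cPSE. All exposed libraries lay under all saline ones, and the log2 fold change of -0.28 ± 0.08 had an edgeR adjusted p of 0.314. Hsp90aa1, the inducible cytosolic Hsp90, was at -0.23 ± 0.09 (adjusted p = 0.396), Xbp1 at 0.23 ± 0.10 (0.426) and P4hb at 0.15 ± 0.07 (0.460). Each library's log2 CPM, relative to the mean of all hippocampus libraries, was also fitted on transcript length. The slope per doubling was 0.0093 to 0.033 in the WT cPAE libraries, against -0.073 to -0.00064 in the WT cPSE ones. The groups did not overlap, but the signs are relative, since the slopes are centred on 0 within the region. With an offset for length, Hspe1, whose exons span 1474 bases, was at -0.20 (edgeR adjusted p = 0.427). Pdia6 had 71.4, 71.9, 69.9 and 77.8 CPM in WT cPAE and 67.8, 71.2, 69.8 and 64.2 CPM in WT cPSE, ranges that overlap.

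Whether exposure acted differently in KO than in WT hippocampus was tested as an interaction, which called 0.175% of genes and 0 members. The differences ran the same way for 19 of 23 endoplasmic reticulum members (median log2 0.22) and 15 of 18 others (median 0.16), and for 52.3% of all genes. Calr differed by 0.38 ± 0.11 (edgeR adjusted p = 0.195), Pdia6 by 0.46 ± 0.13 (0.204), Hsp90b1 by 0.47 ± 0.14 (0.226) and Hsp90aa1 by 0.42 ± 0.13 (0.236). At this size of group a difference between genotypes was therefore not detected for any single member.

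In the vermis of KO mice 0 members passed for exposure (0.0891% of genes called). Of the 23 endoplasmic reticulum members 20 were positive, with a median of 0.26, and 14 had an unadjusted p under 0.05. Of the 18 others 13 were positive, with a median of 0.06, and 3 had an unadjusted p under 0.05. Of all genes 50.6% were positive, and 1722 were higher (7.67%) and 1271 lower at an unadjusted p under 0.05. Dnajb11, a J-protein of BiP, had 54.2, 60.1, 73.0 and 70.8 CPM in KO cPAE, against 53.4, 51.6, 47.3 and 55.8 CPM in KO cPSE (log2 0.32 ± 0.09, edgeR adjusted p = 0.237). Pdia6 had 75.9, 60.1, 92.0 and 96.4 CPM in KO cPAE, against 56.7, 61.3, 55.2 and 64.6 CPM in KO cPSE (log2 0.46 ± 0.12, edgeR adjusted p = 0.237). In both genes M1 and M3 were far above the saline range and 1 exposed female lay inside it. Hyou1 had 102, 91.2, 109 and 121 CPM in KO cPAE, all above the 87.9, 87.2, 82.9 and 89.2 CPM of KO cPSE (log2 0.30 ± 0.08, edgeR adjusted p = 0.242). Creld2, a luminal protein with a disulfide isomerase motif, was at 0.41 ± 0.12 (edgeR adjusted p = 0.280). Hspa5 had 269, 241, 391 and 388 CPM in KO cPAE and 243, 248, 215 and 309 CPM in KO cPSE, so that M1 and M3 were highest here as well (log2 0.35 ± 0.15, edgeR adjusted p = 0.367). Exposed libraries exceeded all saline ones in Hyou1, Dnajc3, Calr and Sel1l of the endoplasmic reticulum and in Hspa4l of the cytosol, against 2.08% of all genes. Without F3 of KO cPAE, the shallowest library, 6 members passed, and the number of all genes called without it is not given here.

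In WT vermis 0 members passed (0.00446% of genes called). The medians were 0.03 for the endoplasmic reticulum members (18 of 23 positive) and 0.06 for the others (12 of 18), with 46.1% of all genes positive. The smallest p values were those of Herpud1 (0.17 ± 0.07, edgeR adjusted p = 0.905), Syvn1 (0.17 ± 0.07, 0.905), Hspa8 (0.16 ± 0.08, 0.919) and Ahsa1 (0.11 ± 0.06, 0.919). The interaction in the vermis called 0.107% of genes and 0 members. Its medians were 0.21 for the endoplasmic reticulum members (20 of 23 positive) and 0.08 for the others (10 of 18), with 54% of all genes positive, and its smallest p values were those of Hsp90b1 (0.39 ± 0.13, edgeR adjusted p = 0.348), Pdia6 (0.47 ± 0.17, 0.368), Dnajc3 (0.28 ± 0.11, 0.389) and Hyou1 (0.28 ± 0.12, 0.400). The difference of the exposure effect between vermis and hippocampus in KO mice was called for 0.00409% of genes and 0 members. The nearest were Syvn1 (-0.20 ± 0.08) and Hspa5 (-0.23 ± 0.11), both lower in the vermis with an edgeR adjusted p of 0.820, then Pdia4 (-0.20 ± 0.10, 0.824) and Atf4 (-0.14 ± 0.08, 0.824). In WT mice the same comparison called 0% of genes.

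Averaged over the 23 members, the endoplasmic reticulum arm ordered the exposed mice alike in both regions. Mean log2 CPM was 6.12, 6.06, 6.39 and 6.41 in KO cPAE vermis and 6.07, 6.04, 5.91 and 6.13 in KO cPSE vermis. In the hippocampus of the same mice it was 6.21, 6.04, 6.29 and 6.45 in KO cPAE and 5.98, 5.97, 5.88 and 6.02 in KO cPSE. The exposed males M3 and M1 were the highest of their group in both regions and the exposed female F3 the lowest, and the groups overlapped in the vermis but not in the hippocampus. The cytosolic and mitochondrial arm was at 6.69, 6.72, 6.83 and 7.03 in KO cPAE hippocampus and 6.73, 6.73, 6.61 and 6.69 in KO cPSE hippocampus, where M1 and M3 lay above the saline range and F1 and F3 within it.

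**Figure D3:**
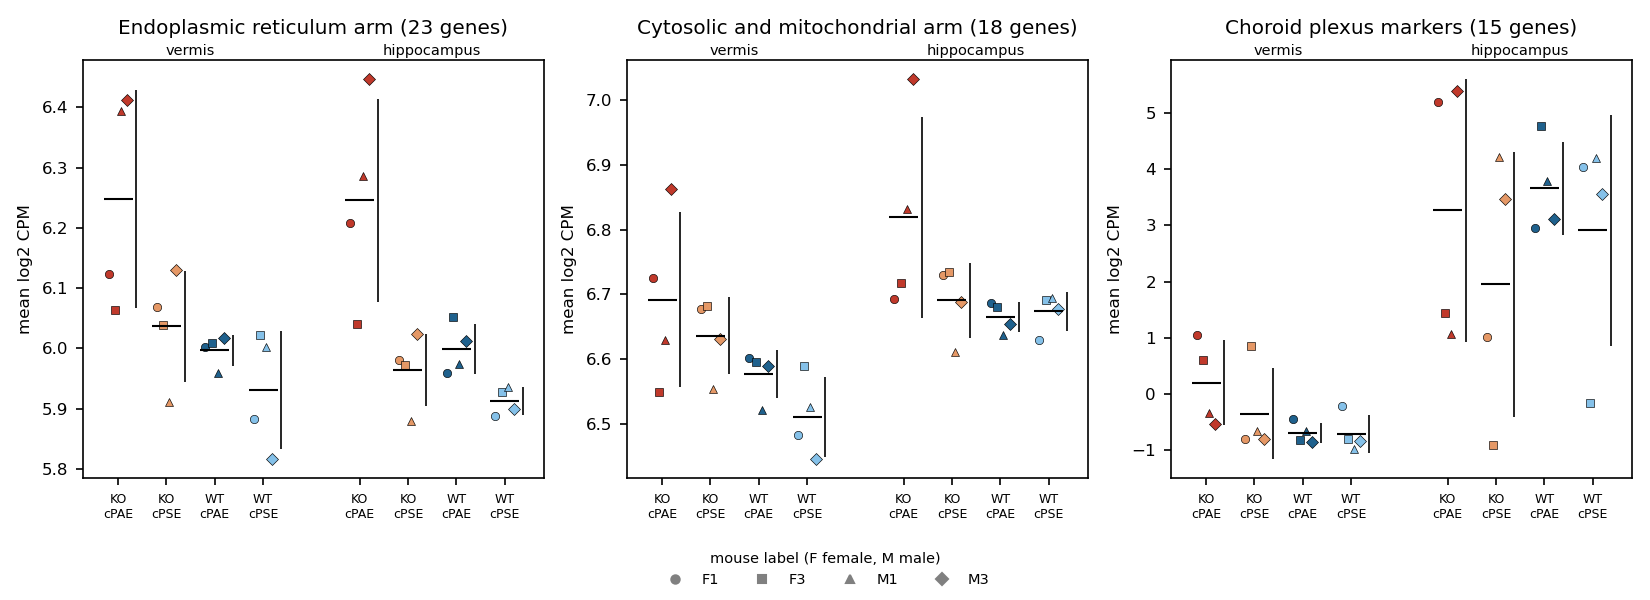
Mean log2 CPM per library of the 23 endoplasmic reticulum members, the 18 cytosolic and mitochondrial members and 15 choroid plexus markers, with vermis left, hippocampus right and the same symbols for mice. Horizontal and vertical lines are group means ± 1 SD. Endoplasmic reticulum levels are highest in M1 and M3 of KO cPAE, while choroid plexus markers vary over several log2 units in KO hippocampus, from 1.07 to 5.40 in KO cPAE and from -0.91 to 4.23 in KO cPSE.

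Group values of markers of other cells also shifted with exposure in KO mice, some in the order of the endoplasmic reticulum means and some not. In KO cPAE vermis, ependymal markers averaged 0.57, 0.19, 1.15 and 1.38 log2 CPM and astrocyte markers 8.05, 7.91, 8.07 and 8.11. Both lists ran in the order of the endoplasmic reticulum means there, and the part of these cells was not tested. The next 2 lists did not follow that order. Choroid plexus markers averaged 5.19, 1.44, 1.07 and 5.40 log2 CPM in KO cPAE hippocampus, lowest in M1. Microglial markers averaged 4.13, 3.02, 3.35 and 3.64 log2 CPM in KO cPAE vermis, highest in F1. In the hippocampus the 15 choroid plexus markers summed to 129 to 3503 CPM in KO cPAE and to 38.2 to 1357 CPM in KO cPSE, with 15 of 15 fold changes positive (median 1.67) and 0 called. With the choroid plexus level as a covariate, Pdia6 was still the 1 member called, and the medians were 0.27 for the endoplasmic reticulum members and 0.14 for the others. The vermis of KO mice, where these markers summed to 26.1 to 102 CPM in KO cPAE and 21.6 to 95.9 CPM in KO cPSE, gave medians of 0.36 and 0.10 with that covariate. All 10 microglial markers had positive fold changes in KO mice, with sums of 350.5 to 397 CPM in KO cPAE against 311 to 348 CPM in KO cPSE hippocampus and 114 to 239.9 against 117 to 125 CPM in the vermis. The 10 oligodendrocyte markers were likewise all positive, with a median of 0.58 in KO vermis and 0.38 in KO hippocampus. In KO vermis 0 of 10 Purkinje and 1 of 10 granule neuron markers had a positive fold change, and without the F1 library the median of the endoplasmic reticulum members was 0.32 and that of the others 0.06. None of the microglial, oligodendrocyte, Purkinje or granule markers was at 0 counts, and the part of these cells in the result was not tested. In bulk tissue, fewer cells of a type and less RNA per cell cannot be told apart.

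Loss of ACSS2 was compared next within each exposure, with the same KO cPAE libraries as above on the ethanol side. In ethanol-exposed hippocampus Calr and Pdia6 rose in KO mice (2 of 41 members called, with 0.171% of genes called in either direction and 0.0598% as higher). Calr had 353, 326, 365 and 427 CPM in KO cPAE, against 248, 254, 265 and 271 CPM in WT cPAE, without overlap (log2 0.51 ± 0.07, edgeR adjusted p = 0.0122). Pdia6 had 98.0, 91.3, 111 and 136 CPM in KO cPAE, all above the 71.4, 71.9, 69.9 and 77.8 CPM of WT cPAE (log2 0.58 ± 0.09, edgeR adjusted p = 0.0173). Pdia3 was at 0.36 ± 0.07 (edgeR adjusted p = 0.0639). Hspa8, the constitutive cytosolic Hsp70, had 1579.9, 1659.5, 1732 and 1924 CPM in KO cPAE, all above the 1256, 1245, 1455 and 1461 CPM of WT cPAE, and missed the threshold (log2 0.35 ± 0.08, edgeR adjusted p = 0.0769). Medians were 0.21 for the endoplasmic reticulum members (21 of 23 positive) and 0.17 for the others (17 of 18), with 51.6% of all genes positive. KO libraries all exceeded WT libraries in 8 members of the endoplasmic reticulum and 3 others, against 3.09% of genes. Without WT cPAE F1, M1 or M3 the 2 calls were lost, and without KO cPAE F3 there were 5.

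In saline-exposed hippocampus 0 members passed (0.00427% of genes called). Medians were 0.05 for the endoplasmic reticulum members (16 of 23 positive) and -0.004 for the others (9 of 18), with 50.9% of all genes positive. Hspe1 had 27.0, 24.0, 25.7 and 28.4 CPM in KO cPSE, against 30.7, 34.4, 27.9 and 35.8 CPM in WT cPSE, overlapping at M3 of the KO and M1 of the WT mice (log2 -0.30 ± 0.08, edgeR adjusted p = 0.224). Hspa8 was at 0.23 ± 0.07 (0.347), Dnajb1 at 0.18 ± 0.06 (0.358) and P4hb at 0.20 ± 0.07 (0.378).

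**Figure D4:**
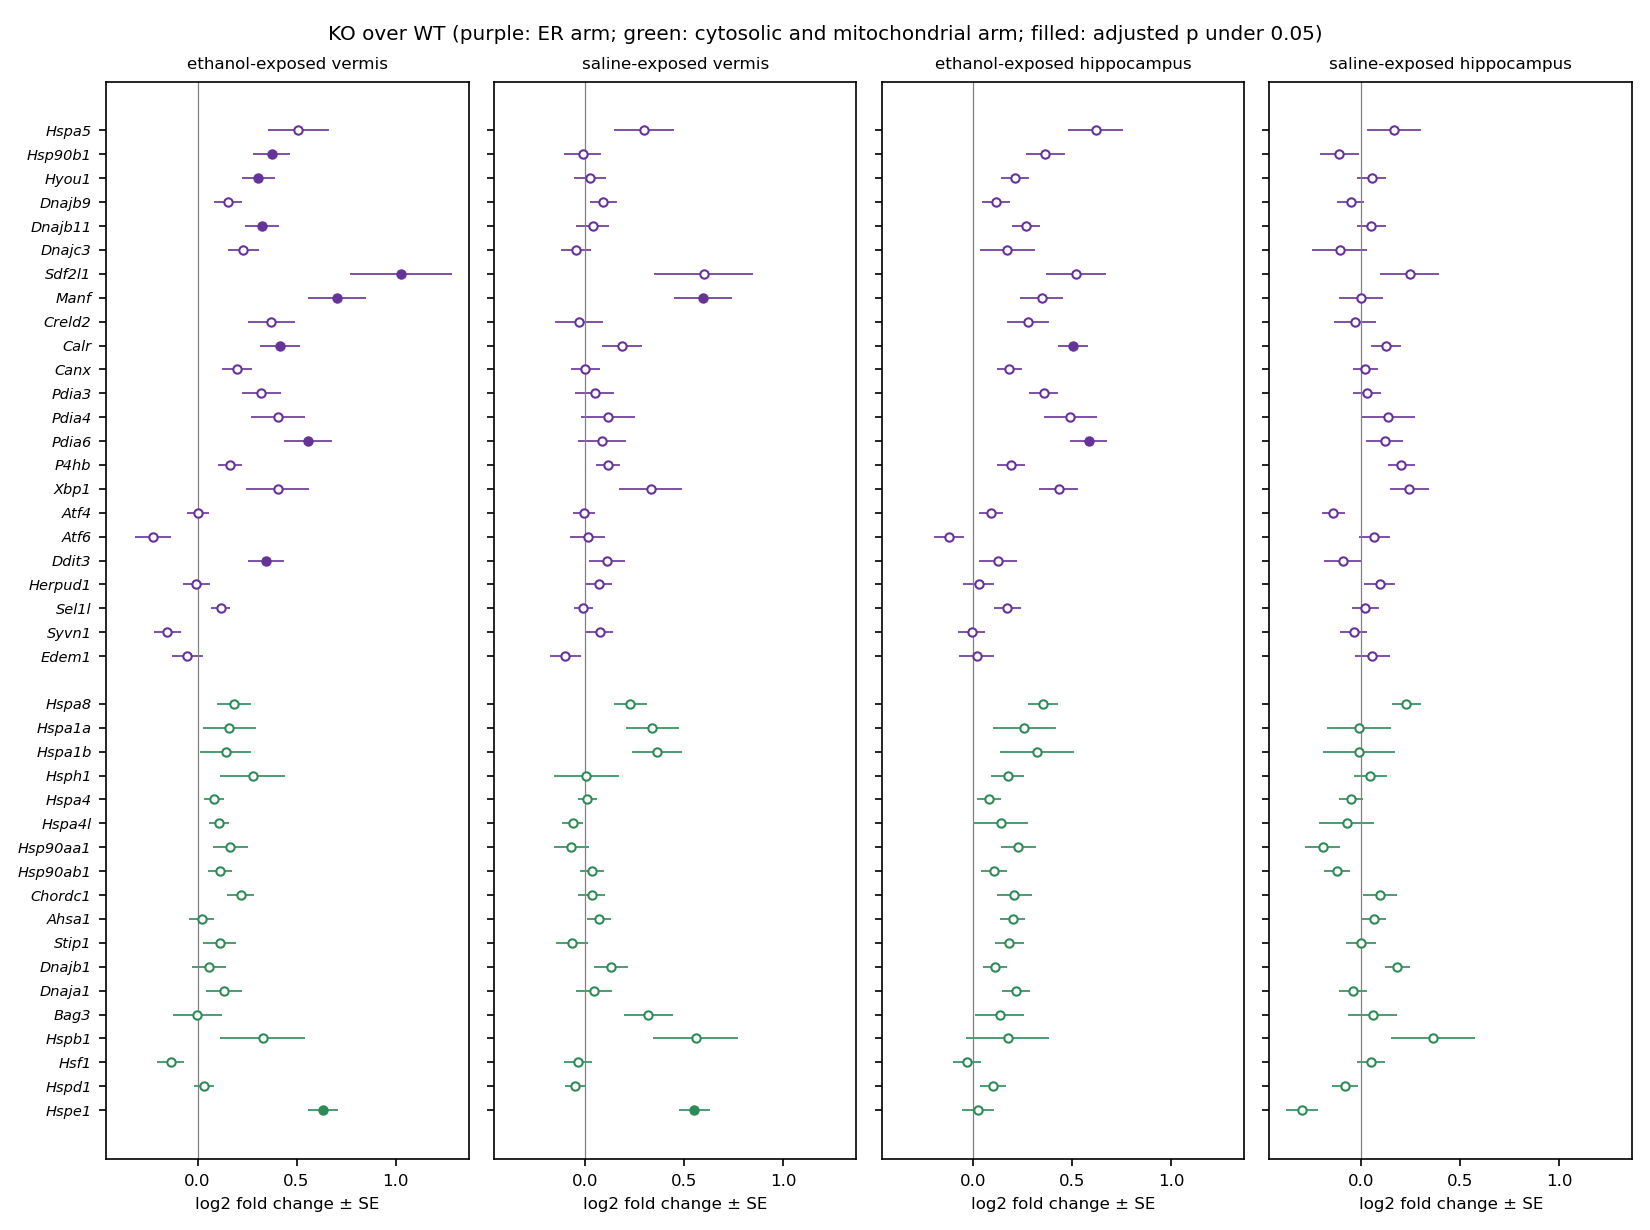
Log2 fold change of KO over WT, ± SE, for the 41 members in ethanol-exposed and saline-exposed mice, per region. Colours and filling are as in the plot of the exposure effect. In ethanol-exposed vermis 8 endoplasmic reticulum members and Hspe1 are filled, and in saline-exposed vermis only Hspe1 and Manf.

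The vermis of ethanol-exposed mice held the most member calls between genotypes: 9 rose in KO and 0 fell, 8 of 23 in the endoplasmic reticulum and 1 of 18 elsewhere. Genes called higher were common there, 5.74% of those tested and 7.53% in either direction, and the share was 4.63% higher and 4.91% in either direction in saline-exposed vermis. Hspe1, the mitochondrial Hsp10, had the smallest p, with 40.4, 35.0, 36.7 and 41.1 CPM in KO cPAE, against 27.1, 24.5, 22.9 and 26.1 CPM in WT cPAE (log2 0.63 ± 0.08, edgeR adjusted p = 6.6e-05). Its saline-exposed values were 42.2, 38.5, 33.9 and 36.6 CPM in KO cPSE and 28.6, 25.9, 23.9 and 25.3 CPM in WT cPSE (log2 0.55 ± 0.08, edgeR adjusted p = 0.000271). Every KO vermis library lay above every WT one. Its partner Hspd1, of which 1 promoter window overlaps that printed above almost wholly, did not pass. Hspd1 had 158, 148, 145 and 159 CPM in KO cPAE and 153, 153, 145 and 156 CPM in WT cPAE vermis. These ranges overlapped, with a log2 fold change of 0.03 ± 0.05. In the hippocampus Hspe1 was at 0.02 ± 0.08 between KO and WT of the ethanol-exposed mice.

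Manf had 38.5, 39.5, 64.1 and 61.9 CPM in KO cPAE vermis, against 32.6, 30.5, 31.9 and 30.2 CPM in WT cPAE (log2 0.71 ± 0.15, edgeR adjusted p = 0.00767). It rose in saline-exposed KO vermis as well, with 41.4, 37.5, 34.8 and 52.3 CPM in KO cPSE and 28.0, 27.9, 27.6 and 26.2 CPM in WT cPSE (log2 0.59 ± 0.15, edgeR adjusted p = 0.0266). No KO library overlapped a WT one in either exposure. Hspe1 and Manf were the 2 of 41 members called in saline-exposed vermis, a share near the 4.91% of all genes called there. The medians there were 0.07 for the endoplasmic reticulum members and 0.04 for the others. Hspa1b (0.36 ± 0.13, edgeR adjusted p = 0.162) and Hspa8 (0.23 ± 0.08, 0.187) came next. Leaving out any 1 of 6 saline-exposed vermis libraries (F1, F3 or M3 of KO cPSE, F3, M1 or M3 of WT cPSE) left 1 call. Mitochondrial Hspe1 was the only called member outside the endoplasmic reticulum in the comparisons between exposures or genotypes.

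The other 7 calls in ethanol-exposed KO vermis were all of the endoplasmic reticulum, none of which passed in saline-exposed vermis, though the test of the difference between exposures, the interaction above, called 0 of them. Pdia6 had 75.9, 60.1, 92.0 and 96.4 CPM in KO cPAE, against 55.0, 57.0, 52.3 and 58.6 CPM in WT cPAE (log2 0.56 ± 0.12, edgeR adjusted p = 0.0112). Calr had 289, 279, 377 and 380.2 CPM in KO cPAE, against 244, 258, 245 and 258 CPM in WT cPAE (log2 0.42 ± 0.10, edgeR adjusted p = 0.0202). In both, F3 was the KO library nearest to WT and M3 the farthest. Hsp90b1 had 332, 315, 399 and 405 CPM in KO cPAE, against 282, 299.8, 261 and 295 CPM in WT cPAE (log2 0.37 ± 0.09, edgeR adjusted p = 0.0243). Sdf2l1, which keeps misfolded proteins soluble with Dnajb11, had the largest fold change of the members, with 12.6, 8.55, 20.7 and 18.8 CPM in KO cPAE and 8.54, 8.43, 5.60 and 7.11 CPM in WT cPAE (log2 1.03 ± 0.26, edgeR adjusted p = 0.0252). The KO F3 library lay only just above the highest WT one.

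Ddit3 had 15.7, 14.2, 19.7 and 17.5 CPM in KO cPAE vermis, against 13.3, 12.6, 13.8 and 13.8 CPM in WT cPAE (log2 0.35 ± 0.09, edgeR adjusted p = 0.0289). A second gene ID of the same symbol, 105 bases long, carries 21.4% as many counts as this one and was not used here. Dnajb11 had 54.2, 60.1, 73.0 and 70.8 CPM in KO cPAE, against 51.0, 53.1, 52.2 and 52.4 CPM in WT cPAE (log2 0.32 ± 0.09, edgeR adjusted p = 0.0308). Hyou1 had 102, 91.2, 109 and 121 CPM in KO cPAE, against 86.8, 90.0, 81.3 and 89.7 CPM in WT cPAE (log2 0.31 ± 0.08, edgeR adjusted p = 0.0326). No KO library of these genes overlapped a WT one. Hspa5 itself, with 269, 241, 391 and 388 CPM in KO cPAE and 229, 240.0, 213 and 230.1 CPM in WT cPAE, did not overlap either and missed the threshold (log2 0.51 ± 0.15, edgeR adjusted p = 0.0596). Medians were 0.32 for the endoplasmic reticulum members and 0.12 for the others, and all KO libraries exceeded all WT ones in 9 and 1 of them, against 7.53% of genes.

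Of the wider lists, 7 of 49 endoplasmic reticulum genes and 4 of 45 cytosolic and mitochondrial ones rose in ethanol-exposed KO vermis and 0 fell, where 5.74% of all genes were called higher. They included Selenok, a selenoprotein of the endoplasmic reticulum membrane (log2 0.60), Cnpy2, a luminal saposin-like protein (0.57), Sec61b of the translocation channel (0.61), the prolyl isomerase Fkbp2 (0.44) and Sdf2 (0.39). On the other side were Hsbp1, which binds HSF1 (0.35), the chaperonin subunits Cct7 (0.30) and Cct4 (0.20), and the mitochondrial exchange factor Grpel1 (0.27). In saline-exposed KO vermis 6 of 49 and 4 of 45 rose, where 4.63% of all genes were called higher.

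A measure of the libraries moved with genotype in the vermis. Each library's log2 CPM was taken relative to the mean of all libraries of its region. The slope of this difference on transcript length, per doubling, was -0.058 to -0.015 in the 8 KO vermis libraries. It was 0.0097 to 0.046 in the 8 WT ones, so that the genotypes did not overlap. Such slopes are centred on 0 within a region, so their signs show only how the genotypes stand to each other. With an offset for length, 7 members were called in ethanol-exposed vermis, and Sdf2l1 (adjusted p = 0.067), Ddit3 (0.133) and Dnajb11 (0.057) were no longer among them. Hspe1, whose exons span 1474 bases, was then at 0.49 with an edgeR adjusted p of 0.000532, and Manf at 0.69 with 0.0146. Without the KO cPAE vermis library F1 there were 11 calls, and without M3 of that group or M1 of WT cPAE there were 2. Leaving out KO cPAE M1, WT cPAE F1 or WT cPAE F3 gave 4, and leaving out KO cPAE F3, the shallowest library, gave 21. The number of all genes called with the length offset or in these omissions is not given here. These counts therefore cannot show whether members moved more than other genes. In the same comparison 10 of 10 microglial and 5 of 5 blood markers had positive fold changes (medians 0.57 and 2.51). F1 of KO cPAE was the highest library for both lists. Blood markers averaged 11.4 log2 CPM there, against 6.43, 7.46 and 7.30 in F3, M1 and M3 and 4.72 to 6.90 in WT cPAE. Microglial markers averaged 4.13 in F1, against 3.02, 3.35 and 3.64 in those libraries and 2.76 to 3.35 in WT cPAE. The part of these cells in the calls was not tested.

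Promoter elements were set beside these values. In KO hippocampus the 8 members with a full stress element had a median exposure log2 fold change of 0.41, all positive. The median was 0.21 for the 12 endoplasmic reticulum members without a full one in the window, also all positive. The part CCACG of the element was in 17 of the 20 endoplasmic reticulum promoters (85%) and in 32.8% of all promoters, so the split concerns the full element only. In KO vermis these medians were 0.33 and 0.16. In the genotype comparison of ethanol-exposed vermis they were 0.37 and 0.24, with 3 called in each set, and in ethanol-exposed hippocampus 0.32 and 0.18. The order was reversed for genotype in saline-exposed mice, at 0.036 and 0.079 in the vermis and -0.004 and 0.056 in the hippocampus. It was also reversed for exposure in WT mice, at 0.005 and 0.045 in the vermis and 0.079 and 0.101 in the hippocampus. For the cytosolic and mitochondrial members in KO hippocampus, the 9 genes with a heat shock pair had a median of 0.15 and the 5 without one 0.16. For exposure in KO vermis these medians were 0.04 and 0.06. For genotype they were 0.16 and 0.08 in ethanol-exposed vermis and 0.32 and 0.01 in saline-exposed vermis, with 8 of the 9 positive and Hspe1 the 1 called in each. These differences between sets were not tested.

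Between regions the arms differed in another way. In saline-exposed WT mice 29 of 41 members differed between vermis and hippocampus, 13 higher and 16 lower in the vermis, in a comparison that called 54.5% of genes (25.7% higher and 28.8% lower). The 18 cytosolic and mitochondrial members ranged from -1.32 to 1.32 on the log2 scale, and the 23 endoplasmic reticulum members from -0.55 to 0.65. Hsph1, the Hsp110 exchange factor, had 126, 154, 122 and 113 CPM in the vermis, against 312, 349, 315 and 303 CPM in the hippocampus (log2 -1.32 ± 0.10, edgeR adjusted p = 7.74e-09). Inducible Hsp70 fell too, with 12.2, 13.7, 12.8 and 12.3 CPM of Hspa1b in the vermis, against 29.3, 28.3, 33.0 and 36.2 CPM in the hippocampus (log2 -1.31 ± 0.11, edgeR adjusted p = 2.99e-08). Its copy Hspa1a had 13.2 to 15.5 CPM in the vermis, against 26.1 to 33.2 CPM in the hippocampus (log2 -1.02 ± 0.10). The regions did not overlap for any of the 3.

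Bag3, which hands clients of Hsp70 to autophagy, went the other way, with 14.1, 17.1, 18.5 and 19.6 CPM in the vermis, against 8.03, 5.67, 7.93 and 6.12 CPM in the hippocampus (log2 1.32 ± 0.14, edgeR adjusted p = 4.05e-07). Hsp90ab1 had 1007, 1103, 1057 and 963 CPM in the vermis, against 1574, 1509.8, 1635 and 1839 CPM in the hippocampus (log2 -0.66 ± 0.07). Dnaja1, a J-protein of Hsp70, was at -0.59 ± 0.07. Among endoplasmic reticulum members, the membrane protein Herpud1 had 44.7, 54.7, 55.2 and 48.8 CPM in the vermis, against 32.8, 31.4, 36.1 and 35.4 CPM in the hippocampus (log2 0.58 ± 0.06). Xbp1 had 50.1, 67.2, 70.0 and 49.9 CPM in the vermis, against 35.8, 37.5, 40.4 and 35.6 CPM in the hippocampus (log2 0.65 ± 0.09), while the sensor Atf6 was lower in the vermis (log2 -0.55 ± 0.06), as was Edem1 (-0.44 ± 0.06). The fold changes without printed p had edgeR adjusted p values from 2.92e-07 to 1.25e-05. BiP (0.11), Calr (-0.14), Manf (0.08) and Hspa8 (0.04) were among the 12 members that did not pass.

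**Figure D5:**
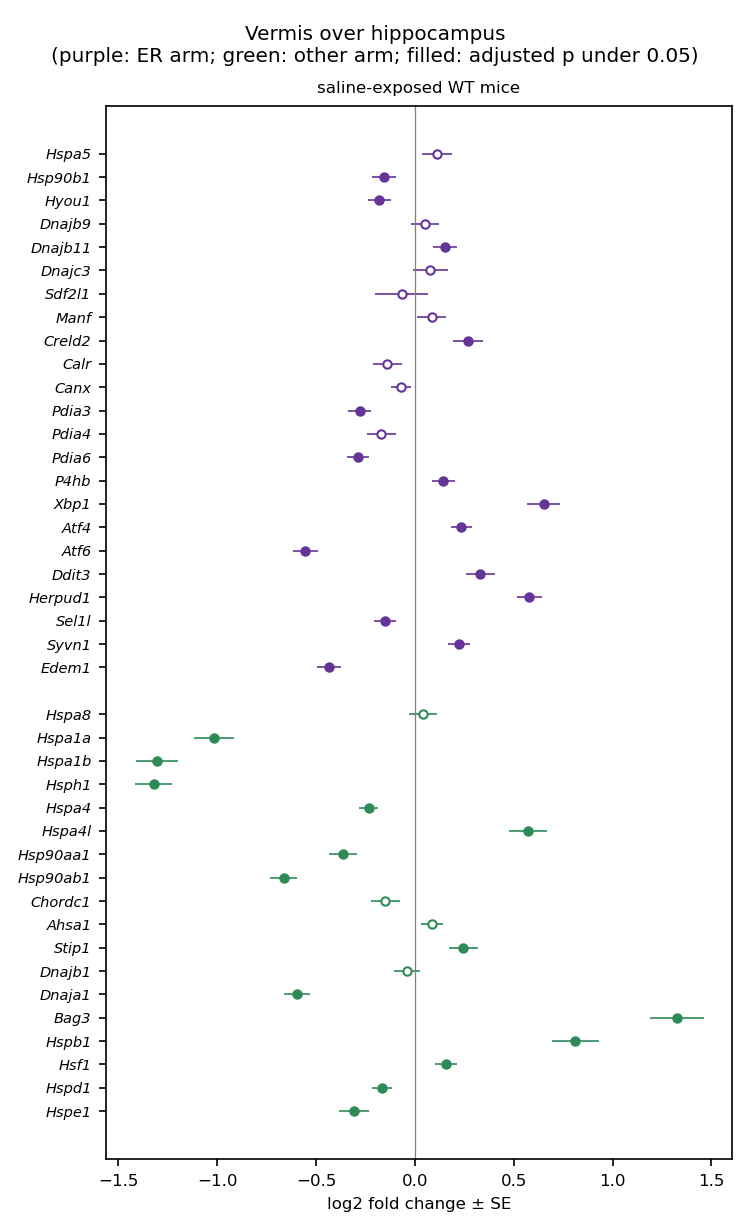
Log2 fold change of vermis over hippocampus, ± SE, for the 41 members in saline-exposed WT mice. Endoplasmic reticulum members are purple, the others green, and filled symbols have an edgeR adjusted p under 0.05. Green symbols reach from -1.32 (Hsph1) to 1.32 (Bag3), and purple ones from -0.55 (Atf6) to 0.65 (Xbp1).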

How the data were processed

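The authors deposited raw read counts per gene. The submitters' processing notes name GRCm39, STAR 2.7.10a, featureCounts 2.0.6, cutadapt 5.0, bcl2fastq and DESeq2, without roles or strand setting. Of counts from 1 to 19, 87.6% were even, as when mates of a pair are counted separately. The 16 libraries of a region entered 1 edgeR 4.0.16 fit (R 4.3.3, limma 3.58.1) with a sex term, TMM scaling, filterByExpr and robust quasi-likelihood F-tests, on 23394 genes in hippocampus and 22441 in vermis. Regions were compared over all 32 libraries with mouse as a block (24458 genes). Benjamini-Hochberg adjustment covered all genes, at a threshold of 0.05. Printed CPM are TMM-scaled over the 32 libraries, and log2 CPM used a prior count of 2. Fold changes are those of the fit on counts. Figures were drawn with matplotlib 3.10.9 in Python 3.11.15.

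Members and lists were chosen with earlier results of these data known. Given in full were members past the threshold (at most the 10 with the smallest p) or, where fewer than 4 passed, the 4 with the smallest p, and up to 5 called genes of each wider list. The fit was checked on simulated counts. Among 48 library pairs within groups none was a copy (lowest chi-square per degree of freedom 9.05). The alternatives tried were a length offset (lowess span 0.3), choroid plexus markers as a covariate, the replicate label in place of sex, leaving out sex, RLE scaling, keeping all genes, fitting the compared groups alone, DESeq2 1.42.0, and omission of each library in turn. The sex difference was added after seeing the data.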

Additional observations from a re-analysis of the deposited data

Results flagged for a closer look

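Of 88 groups of 4 values checked, the 2 arm means and 9 called members in each group, 2 held a library far from the other 3, while chance gives about 1 in 20. In WT cPAE vermis M1, the cytosolic and mitochondrial arm averaged 6.52 log2 CPM, against 6.59 to 6.60 in the other 3 libraries. In WT cPAE hippocampus F1, Dnajb11 had 45.8 CPM, against 48.9 to 49.3 CPM in the others. Both are small differences in groups whose other libraries lay close together.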

How the results depend on the processing

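No fold change of a named member changed sign under any alternative run. The arm medians changed sign in 19 recomputations of 7 medians, reaching at most 0.053 in size on the other side of 0. For genotype in saline-exposed vermis the endoplasmic reticulum median was -0.0073 without M3 of WT cPSE, and in saline-exposed hippocampus the cytosolic and mitochondrial median was 0.0085 with the length offset and 0.017 with the choroid plexus covariate. Of the recomputed member fold changes 1322 kept direction and side of the threshold, 87 fell below it and 23 newly passed it. Members that stayed uncalled count as kept, so this tally overstates how stable the calls were. Of 16 omissions, 13 lost Pdia6 for exposure in KO hippocampus. For genotype in ethanol-exposed vermis 10 of 16 lost Dnajb11, 10 of 16 lost Hyou1, and 0 lost Hspe1 or Manf. The named calls between regions were lost in 0. Of the recomputed arm medians 590 moved by less than the spread between replicates and 6 by more. Counts of called members moved by more than 1.5 times, or to or from 0, in 44 recomputations, and the cause was not tested. In 254 they moved by at most 1.5 times or not at all. Counts that stayed at 0 are among these, so this tally too overstates stability. With DESeq2 they were 10 for exposure in KO hippocampus (1 with edgeR) and 8 for genotype in ethanol-exposed hippocampus (2 with edgeR). With no low-count filter they were 12 and 11, 4 for the interaction in hippocampus (0 with the filter) and 1 for genotype in saline-exposed vermis (2 with the filter). Fitting only the groups compared, which leaves fewer samples, gave 0, 0, 2 for genotype in ethanol-exposed vermis (9 with all groups) and 4 for genotype in saline-exposed vermis. The length offset gave 2 for exposure in KO hippocampus. Calls over all genes moved as well: for exposure in KO hippocampus DESeq2 called 113 genes and edgeR 12. For the other alternatives and omissions the number of all genes called is not given here. Their counts therefore cannot show whether members moved more than other genes. Mice with the same label did not consistently deviate together (r from -0.67 to 0.51 in the vermis, over 0.1 in 7 of 24 pairs, and from -0.50 to 0.52 in the hippocampus, in 5 of 24). The median r was -0.087 in the vermis and -0.10 in the hippocampus, against 0.051 and 0.052 for different labels. Such scattered values cannot settle whether the label stands for more than a number. With the label as a replicate block, genotype in saline-exposed vermis gave 1 call, since Manf missed with an edgeR adjusted p of 0.0526. Leaving out single libraries gave 0 to 4 calls for exposure in KO hippocampus, 0 to 5 and 0 to 1 for genotype in ethanol-exposed and saline-exposed hippocampus, 0 to 6 for exposure in KO vermis, 2 to 21 and 1 to 3 for genotype in ethanol-exposed and saline-exposed vermis, and 24 to 28 between regions. Medians of the cytosolic and mitochondrial members then ran from 0.052 to 0.18 for exposure in KO hippocampus, 0.066 to 0.22 and 0.033 to 0.16 for genotype in ethanol-exposed hippocampus and vermis, -0.0083 to 0.10 for the interaction in vermis, and 0.048 to 0.14 for the regional difference of the exposure effect in WT. For the endoplasmic reticulum members the median for genotype in ethanol-exposed hippocampus ran from 0.17 to 0.31. Depth limits the rarest members most, and Hspb1 had as few as 94 counts in a library.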

Other observations

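In KO mice the exposure values of males and females were set apart after the data were seen, in a model with separate terms for males and females of each group, 2 mice apiece. The endoplasmic reticulum members had a median log2 fold change of 0.46 in KO males and 0.08 in KO females in the vermis, and of 0.40 in KO males and 0.18 in KO females in the hippocampus. The difference, male minus female, was positive for 21 of 23 endoplasmic reticulum members in both regions, with medians of 0.34 in the vermis and 0.24 in the hippocampus. It was positive for 16 of 18 cytosolic and mitochondrial members in the vermis (median 0.14) and for 17 of 18 in the hippocampus (median 0.20). No gene of the whole table passed an edgeR adjusted p of 0.05 for this difference (0% called in either region), and 463 genes in the vermis (2.06%) and 974 in the hippocampus (4.16%) had an unadjusted p under 0.05. Among members, 10 of 23 endoplasmic reticulum and 1 of 18 other genes in the vermis, and 7 of 23 and 6 of 18 in the hippocampus, were under that level. The KO cPAE vermis females were F1, the library that stood apart in oligodendrocyte, blood and neuron markers, and F3, the shallowest with 23085928 counts. The vermis values rest on these libraries, and their part was not tested. The small heat shock gene Hspb1 differed most, by 1.36 ± 0.27 in the vermis and 1.14 ± 0.32 in the hippocampus, and did not pass. It is the rarest member by counts, and its SD within groups was 0.32 log2 units in the vermis and 0.34 in the hippocampus. In the vermis it had 7.72 and 8.68 CPM in KO cPAE males, against 4.90 and 5.72 CPM in KO cPSE males, and 5.52 and 3.98 CPM in KO cPAE females, against 8.52 and 7.36 CPM in KO cPSE females. In WT mice the difference was positive for 15 of 23 endoplasmic reticulum members in the vermis and 8 of 23 in the hippocampus.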
